A study of Rattus norvegicus with 16 samples.

Results

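Potassium channel genes were followed in the diencephalon (thalamus and hypothalamus together) of rats that had been made zinc deficient or had recovered from zinc deficiency. A gene was taken when the platform annotation gave its probe set a single gene symbol beginning with Kcn, 1 probe set was kept for each gene (the one with the highest mean log2 signal over all 16 arrays), and the mean log2 signal had to be at least 7.35. Of 75 such genes, measured by 126 probe sets, 35 met the minimum. The lowest of the 35 was Kcna5 at 7.37 and the gene just below the minimum was Kcnk13 at 7.33. The minimum was set on the mean over all 16 arrays, so a gene near it, such as Kcna5, Kcnk3 or Kcng2, was kept in part through the groups in which it was brighter.

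Each array held RNA from the diencephalon of 1 male Sprague-Dawley rat that had entered the study at 5 weeks of age, and the 4 groups had 4 rats each. For 10 days the zinc-deficient rats (ZD) had free access to food that contained 0.6 mg zinc per kg. Pair-fed rats (PF) received, in matched amounts, a diet with 30 mg zinc per kg over the same 10 days, so that lower food intake was common to both groups. In a second experiment, recovery rats (ZR) had the deficient diet for 10 days and then control diet for 6 days at 13 g, a set ration, and their controls (ZRPF) were pair-fed for 10 days before the same 6 days. Rats of all 4 groups had been offered 300 mM NaCl in a drinking preference test, and the submitters chose those used for arrays as typical in body weight, plasma zinc and salt preference, which can make them more alike than unselected rats. The experiments ended on day 10 and on day 16, and age, ration, days of treatment and any difference in handling of the arrays cannot be told apart when one experiment is compared with the other. Values below are log2 signals, listed in order of rat number: 1, 2, 4 and 6 for PF; 2, 3, 8 and 9 for ZD; 2, 4, 5 and 6 for ZRPF; 7, 10, 13 and 15 for ZR. Equal numbers in different groups were not treated as the same rat. A gene is called changed when its limma p-value, adjusted by the Benjamini-Hochberg method over 15521 probe sets, was under 0.05, and errors after fold changes are standard errors (SE).

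Potassium channels let potassium leave the cell and so set the resting potential, end the action potential and limit how often a neuron fires. Voltage-gated (Kv) channels are built from pore subunits of the Kcna, Kcnb, Kcnc, Kcnd, Kcnh and Kcnq genes, with beta subunits (Kcnab) on Kcna channels and calcium-binding KChIP proteins (Kcnip) on Kcnd channels. Inward rectifiers (Kcnj) and K2P leak channels (Kcnk) carry resting current, and the large-conductance BK channel (Kcnma1 with Kcnmb subunits) opens with voltage and calcium. Zinc ions act directly on several of these channels as proteins, but the arrays measured only their transcripts. In bulk tissue, fewer cells of a type and less RNA per cell cannot be told apart.

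The 35 genes covered most of the families. All 3 Kcnc genes on the array were among them (Kcnc1, Kcnc2, Kcnc4), all 3 Kcnd genes, all 3 Kcnab genes, all 4 Kcnip genes and 5 of 6 Kcna genes, Kcna3 being the exception. Of 15 inward rectifiers, 5 met the minimum (Kcnj6, Kcnj11, Kcnj12, Kcnj14, Kcnj16), as did 4 of 11 K2P genes (Kcnk1 to Kcnk4) and 1 of 8 Kcnh genes (Kcnh2). No small-conductance calcium-activated channel gene (Kcnn1, Kcnn3, Kcnn4) met it. The highest means belonged to Kcnc2 (12.98), Kcna2 (12.22), Kcnc1 (11.73), Kcnd2 (11.70), Kcnip4 (11.53) and Kcnab1 (11.09), but each probe set has its own response, so these values do not rank the transcripts. Kcnc and Kcna1 or Kcna2 channels are known for fast firing and for the axon, and the Kcnd, KChIP and DPP proteins together form the A-type current of dendrites.

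Several channels with well-known places in this tissue lay below the minimum on their probe sets. Kcnj10, the main potassium channel of astrocytes, had a mean of 4.52, with single arrays from 2.07 in ZRPF rat 6 to 6.20 in ZR rat 7, while Kcnj16, which pairs with it in glia, had a mean of 10.79. Kcnj8, the pore of the vascular ATP-sensitive channel, had a mean of 6.80 and Kcnq3, a subunit of the M current, 6.43. Kcnj13 and Kcne2, channel genes of the choroid plexus, had means of 5.81 and 5.86. Low signals on a probe set do not show that a transcript was missing, and these genes were not tested.

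**Figure D1:**
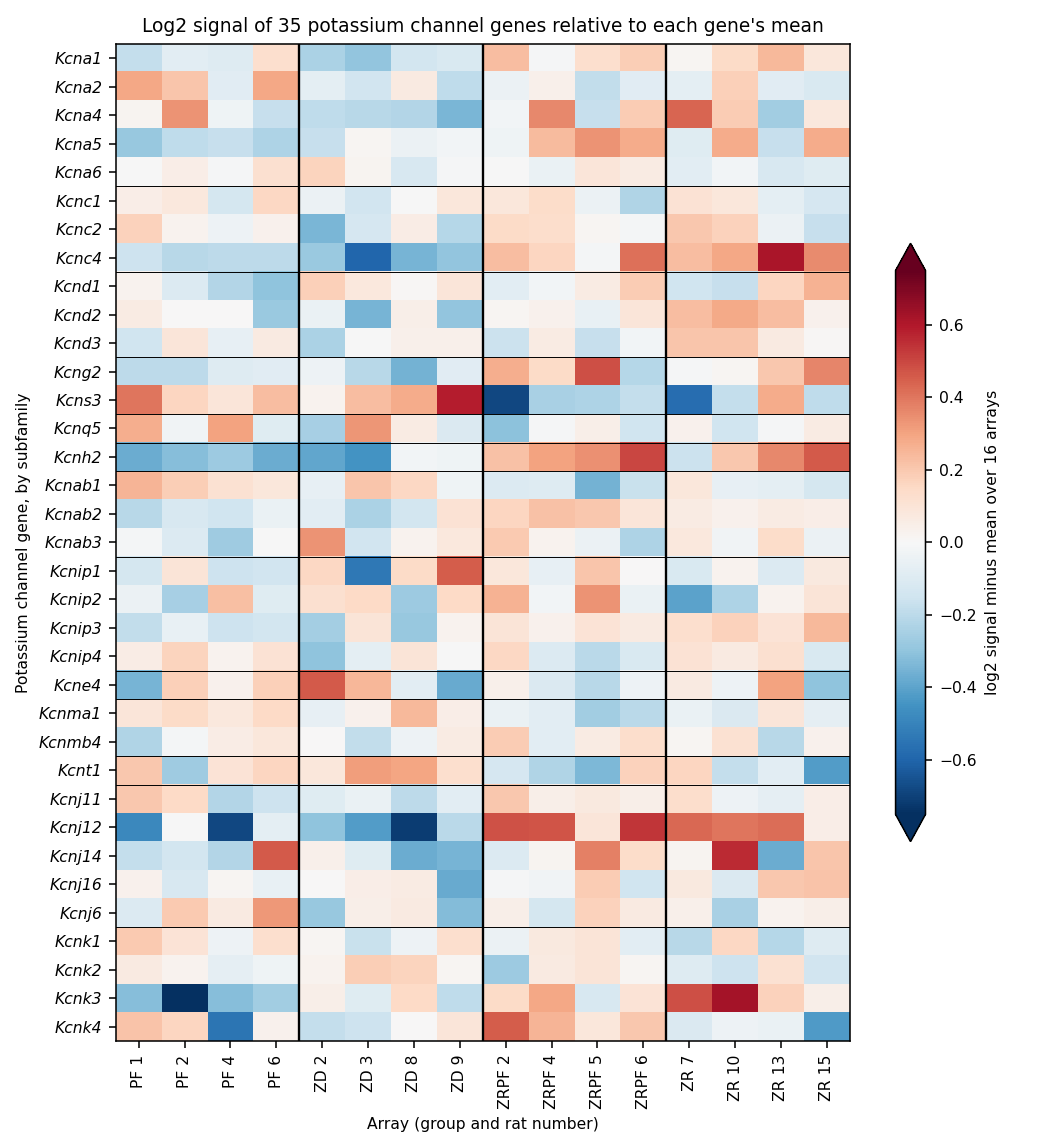
Each row is 1 of 35 potassium channel genes, ordered by subfamily with thin lines between subfamilies, and each column is 1 array; colour gives the log2 signal minus that gene's mean over 16 arrays, with red higher and blue lower. The change of colour lies mostly between the day-10 and day-16 columns, as for Kcnc4, Kcnj12 and Kcnh2 (higher on day 16) and Kcns3 (lower), and less between the blocks of one experiment.

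The arrays were alike in overall brightness, with a median signal of 156 to 172 per array. The labelled tissue was checked on its markers: 13 of 14 listed thalamic markers had a probe set and all 13 were bright enough to test, as were 10 of 13 hypothalamic markers (Sim1, Otp and Pomc were not). Of 11 listed markers of the neighbouring telencephalon, 5 were bright enough to test and 4 (Neurod6, Tbr1, Neurod2 and Adora2a) lay below the filter. The choroid plexus list varied most, from 7755 in a ZR array to 36344 in a ZRPF array. Within groups the 35 genes were as repeatable as other genes, with a median SD of 0.15 (range 0.08 to 0.29) against 0.14 over 9278 genes represented by their brightest tested probe set.

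The first comparison asked what 10 days of zinc deficiency did, with food intake held equal. No potassium channel gene was called between ZD and PF (0 of 35), nor was any other gene (0 of 9278, 0% by adjusted p). At an unadjusted p under 0.05 there were 4 of the 35 (11.4%: Kcna2, Kcnk3, Kcnc2 and Kcnj6) beside 737 of 9278 genes (7.94%). Groups did not overlap for 3 of the 35 (8.57%: Kcna4 and Kcnc4 below, Kcnk3 above), where the share over all genes was 4.35%. Most changes were small: the median over the 35 was -0.03 against 0.02 over all genes, 13 were higher and 22 lower, and for 32 of 35 the 95% interval lay within 0.5 log2 units of zero on both sides. On these brightest probe sets the lowest bound of any interval was -0.57 for Kcna4 and the highest was 0.70 for Kcnk3. Larger changes lie outside these intervals but not outside those of every further probe set. Such probe sets of Kcnab1 and Kcnd3, described below, differed by -0.55 ± 0.14 and -0.53 ± 0.17.

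Kcna2, a Kcna pore subunit of axons, had the smallest p. It measured 12.51, 12.43, 12.14 and 12.51 in PF and 12.15, 12.08, 12.29 and 12.03 in ZD. All PF values but that of rat 4 lay above all ZD values. The difference was -0.26 ± 0.09 (SE; adjusted p = 0.467). Kcna4, the Kcna subunit that gives a rapidly inactivating current, measured 9.55, 9.87, 9.50 and 9.36 in PF and 9.34, 9.32, 9.31 and 9.19 in ZD. Its groups did not overlap, by a margin of hundredths, and the difference was -0.28 ± 0.14 (adjusted p = 0.647). Over the 5 Kcna genes, 4 had negative and 1 (Kcna5) a positive difference, from -0.28 to 0.16.

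The Kcnc genes, whose channels repolarise fast-spiking cells quickly, had differences of -0.06 (Kcnc1), -0.21 (Kcnc2) and -0.19 (Kcnc4). Kcnc2 measured 13.15, 13.00, 12.94 and 13.01 in PF and 12.63, 12.85, 13.03 and 12.76 in ZD, where rat 8 fell inside the PF range. Its difference was -0.21 ± 0.09 (adjusted p = 0.591). Kcnc4 was nearly constant in PF, at 8.79, 8.74, 8.75 and 8.75, and lower in each ZD rat, at 8.67, 8.35, 8.60 and 8.65. The difference of -0.19 ± 0.10 had an adjusted p of 0.693, and ZD rat 3 was the lowest by a clear margin.

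Among the Kcnd genes, Kcnd1 measured 7.95, 7.82, 7.70 and 7.62 in PF and 8.10, 8.00, 7.93 and 8.01 in ZD. The groups met only at PF rat 1 and ZD rat 8, and the difference was 0.24 ± 0.12 (adjusted p = 0.646). Kcnd2 (-0.11; 11.76, 11.70, 11.70 and 11.42 in PF) and Kcnd3 (-0.03) were closer to zero, and the 4 KChIP genes ran from -0.16 (Kcnip4) to 0.14 (Kcnip1). On their brightest probe sets all 5 inward rectifiers had negative differences, from -0.24 to -0.03, beside 4116 of 9278 genes. The lowest was Kcnj6, a subunit of the channel opened by G proteins, at 9.82, 10.12, 9.99 and 10.25 in PF and 9.64, 9.97, 9.99 and 9.60 in ZD. Its groups overlapped and the difference was -0.24 ± 0.11 (adjusted p = 0.609). Kcnj11, the pore of the neuronal ATP-sensitive channel, differed by -0.10 ± 0.10 and Kcnj16 by -0.03 ± 0.10. Further probe sets gave -0.01 ± 0.16 for Kcnj11 (1387698_at) and 0.13 ± 0.11 for Kcnj16 (1370076_at). The brightest Kcnj11 probe set is of a type that can match transcripts of more than 1 gene.

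Kcnk3, which encodes an acid-sensitive leak channel, was the gene with the largest positive difference. It measured 7.09, 6.66, 7.09 and 7.15 in PF and 7.45, 7.32, 7.56 and 7.22 in ZD. Every ZD value lay above every PF value, and PF rat 2 stood far below the others. The difference was 0.39 ± 0.15 (adjusted p = 0.549). The other K2P genes ran from -0.11 to 0.09, and the BK genes Kcnma1 and Kcnmb4 differed by -0.05 and -0.02. In the same comparison, all 8 choroid plexus markers, all 8 mural and meningeal markers and 9 of 10 endothelial markers were higher in ZD (medians 0.49, 0.34 and 0.16), and 10 of 13 thalamic and 8 of 11 pan-neuronal markers were lower (medians -0.09 and -0.06), none of them called. All 5 markers of the neighbouring telencephalon and all 3 of the ependyma were also higher (medians 0.22 and 0.40). Of 10 astrocyte markers 9 were lower (median -0.07). None of these was called either, and over all genes 5162 of 9278 were higher and 4116 lower. Summed choroid plexus signal was 8639 to 10113 in PF and 9551 to 21771 in ZD, and the part of these cells in the channel values was not tested.

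**Figure D2:**
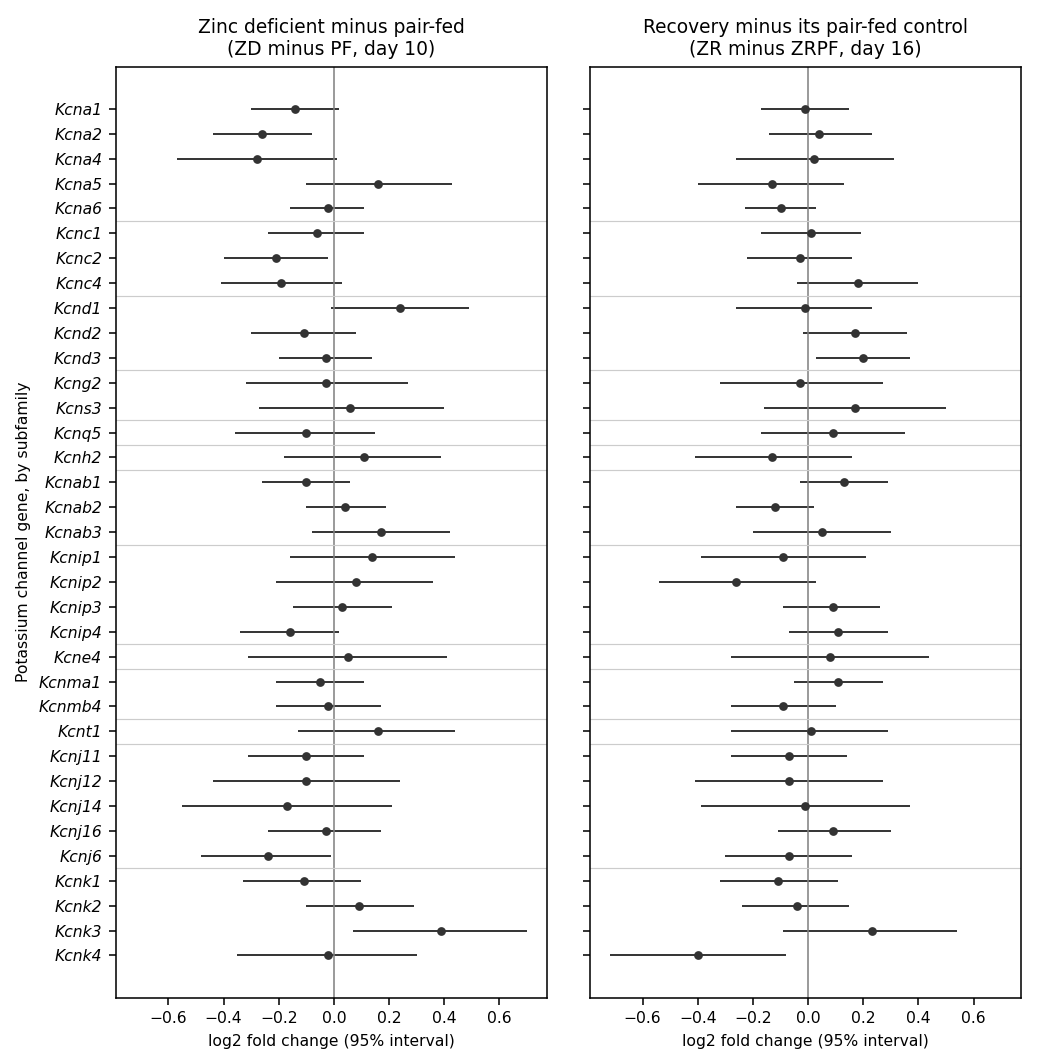
Points are log2 fold changes of the 35 genes by subfamily and bars are 95% intervals from the limma fit, for ZD minus PF (left) and ZR minus ZRPF (right). Nearly all intervals include zero; those that do not belong to Kcna2, Kcnc2, Kcnj6 and Kcnk3 on the left and to Kcnd3 and Kcnk4 on the right, and none of these was called after adjustment.

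The second comparison set recovery rats against controls kept on the same ration. Again no potassium channel gene was called (0 of 35), beside 1 of 9278 genes (0.0108%). There were 2 of the 35 at an unadjusted p under 0.05 (5.71%: Kcnk4 and Kcnd3), near the 4.81% of all genes, and 2 without overlap (Kcnab2 and Kcnk4, both below), where all genes gave 2.82%. The median was -0.01, equal to that of all genes, and 31 of 35 intervals lay within 0.5 log2 units of zero.

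Kcnk4, a leak channel opened by stretch and lipids, measured 8.15, 7.95, 7.78 and 7.90 in ZRPF and 7.59, 7.66, 7.65 and 7.27 in ZR. All ZR values were lower and ZR rat 15 was the lowest. The difference was -0.40 ± 0.15 (adjusted p = 0.927), while ZD and PF differed by -0.02 ± 0.15. Kcnd3, an A-type pore subunit, measured 10.85, 11.07, 10.84 and 10.99 in ZRPF and 11.22, 11.22, 11.08 and 11.02 in ZR, with ZR rat 15 inside the control range. Its difference was 0.20 ± 0.08 (adjusted p = 0.927).

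Kcnd2, its close relative, measured 11.71, 11.73, 11.64 and 11.79 in ZRPF and 11.93, 11.98, 11.93 and 11.73 in ZR, a difference of 0.17 ± 0.09. Kcnip2, a KChIP that slows the inactivation of these channels, went the other way, with 9.35, 9.07, 9.43 and 9.04 in ZRPF and 8.69, 8.86, 9.12 and 9.19 in ZR (-0.26 ± 0.14). Both pairs of groups overlapped. The beta subunits also differed in sign: Kcnab1 was 10.99, 11.00, 10.74 and 10.93 in ZRPF and 11.18, 11.03, 11.02 and 10.96 in ZR (0.13 ± 0.08). Kcnab2 was 11.09, 11.15, 11.13 and 11.02 in ZRPF and 10.99, 10.96, 10.99 and 10.98 in ZR (-0.12 ± 0.07), without overlap but by a small margin. Each of these 4 had an adjusted p of 0.927.

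The interaction compared the change in recovery with the change in deficiency, (ZR minus ZRPF) minus (ZD minus PF). It was called for 0 of 35 potassium channel genes and 0 of 9278 genes (0%). At an unadjusted p under 0.05 there were 5 of the 35 (14.3%) and 600 of all genes (6.47%). The 5 were Kcna2 (0.31 ± 0.12), Kcnc4 (0.37 ± 0.15), Kcnip4 (0.27 ± 0.12), Kcnd2 (0.28 ± 0.13) and Kcnab1 (0.23 ± 0.11), each with an adjusted p of 0.747, and Kcnd3 followed at 0.22 ± 0.11 (adjusted p = 0.751). In all 6 the difference was negative in deficiency and positive in recovery on the brightest probe set. Opposite signs follow in part from picking genes by the interaction, so they are no separate result. The signs held on further probe sets of Kcnab1 and Kcnd3. For Kcnip4 (1370595_a_at) ZD minus PF was -0.01 ± 0.10 and ZR minus ZRPF 0.02 ± 0.10, both within their SE of zero. For Kcnd2 (1387476_at) ZR minus ZRPF had the other sign, at -0.04 ± 0.12, also within its SE. On further probe sets of these genes the interaction was 0.03 ± 0.15 (Kcnip4), 0.10 ± 0.17 (Kcnd2), 0.73 ± 0.20 (Kcnab1) and 0.68 ± 0.25 (Kcnd3), none called. For Kcnip4, a KChIP of neurons, the arrays gave 11.59, 11.70, 11.56 and 11.64 in PF, 11.23, 11.46, 11.63 and 11.53 in ZD, 11.69, 11.43, 11.33 and 11.42 in ZRPF and 11.64, 11.60, 11.65 and 11.42 in ZR. The groups of each experiment overlapped. Only 16 of 35 interaction intervals lay within 0.5 log2 units of zero, so this comparison was the least precise.

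The promoters of 4 of these genes are shown because zinc acts on transcription through MTF-1, a factor that binds the metal response element, and because these genes had the smallest interaction p-values among those with an entry in the RefSeq promoter table (GRCr8). They were chosen after their values were known. Each sequence is the 250 bases before the gene's start, 5′ to 3′ on the gene's strand, with matches to the searched motifs in capitals. The motifs, searched on both strands, were the metal response element (TGCACNC or TGCGCNC), the GC box (GGGCGG), the E-box (CACGTG), the cAMP response element (TGACGTCA) and the TATA box (TATAAA). No matches to different motifs overlapped in these windows.
Kcna2 (chr2:197393280-197393529, plus strand): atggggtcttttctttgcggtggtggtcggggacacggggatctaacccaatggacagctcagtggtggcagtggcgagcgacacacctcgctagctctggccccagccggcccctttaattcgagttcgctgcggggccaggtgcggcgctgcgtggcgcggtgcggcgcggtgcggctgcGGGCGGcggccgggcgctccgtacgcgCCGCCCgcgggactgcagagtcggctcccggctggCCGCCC
Kcnab1 (chr2:151614301-151614550, plus strand): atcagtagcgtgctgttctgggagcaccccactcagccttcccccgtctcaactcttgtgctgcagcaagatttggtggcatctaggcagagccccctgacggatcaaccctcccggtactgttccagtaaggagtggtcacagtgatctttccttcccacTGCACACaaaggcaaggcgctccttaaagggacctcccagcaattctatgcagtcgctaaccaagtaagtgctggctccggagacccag
Kcnc4 (chr2:197788434-197788683, minus strand): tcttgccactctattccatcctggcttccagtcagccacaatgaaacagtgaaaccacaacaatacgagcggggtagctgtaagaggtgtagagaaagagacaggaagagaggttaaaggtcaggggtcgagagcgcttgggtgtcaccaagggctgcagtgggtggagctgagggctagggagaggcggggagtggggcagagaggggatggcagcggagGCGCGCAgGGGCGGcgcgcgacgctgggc
Kcnd2 (chr4:50742235-50742484, plus strand): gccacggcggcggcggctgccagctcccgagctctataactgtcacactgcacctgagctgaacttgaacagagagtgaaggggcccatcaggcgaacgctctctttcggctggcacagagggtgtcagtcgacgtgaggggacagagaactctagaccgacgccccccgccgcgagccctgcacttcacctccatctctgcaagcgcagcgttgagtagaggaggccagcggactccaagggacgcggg

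Kcnc4 and Kcnab1 each held 1 match to the metal response element, Kcna2 held 3 GC boxes, Kcnc4 held 1 GC box next to its metal element, and Kcnd2 held none of the 5 motifs. Of 32 windows from 27 of the 35 genes, 9 held a metal response element (28.1%), beside 20.6% of 33469 windows in the table. A GC box was in 17 of 32 (53.1%), beside 30.5% of all windows, and none of the 32 held a TATA box (12.9% of all) or a cAMP response element (1.59% of all). The E-box was in 1 of 32, that of Kcne4, beside 5.59%. These are matches of letters in a window, and nothing about binding was measured. The 4 promoters shown held 56.0 to 72.4% GC, where the median over all promoters was 51.2%. Over the 27 genes GC content ran from 33.6% (Kcnj16) to 84.4% (Kcnmb4), and the shares were not adjusted for it.

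The comparison of the experiments gave the clearest differences. Between the control-diet groups, ZRPF and PF, 9 of 35 potassium channel genes were called: 6 higher on day 16 (17.1%, beside 9.25% of all genes, 858 of 9278) and 3 lower (8.57%, beside 6.13%, 569 genes). All 9 had groups that did not overlap. This follows in part from picking genes by p, and the share over all genes was not computed. Among the 6 were Kcna5 and Kcnk3, whose PF means lay below the minimum of 7.35. These genes met the minimum in part through their brighter groups. The other genes were also filtered on the mean over all 16 arrays, and the weight of such genes in either share was not tested. With each array centred on its median instead, the split over all genes turned to 529 higher and 1339 lower, and 3 of the 35 were called higher and 4 lower. Between the groups that had begun on the deficient diet, ZR and ZD, 6 of 35 were called higher (17.1%, beside 8.16% of all genes) and 0 lower (8.42% of all genes); at an unadjusted p under 0.05 the count was 12 of 35 in both directions together (34.3%, beside 31.1% of all genes). Called in both comparisons in the same direction were 3 of 35 (8.57%: Kcnc4, Kcnj12 and Kcnh2), close to the 8.42% of all genes. The comparisons share no rats, and 25 of 35 genes had the same sign in both (Pearson r = 0.71 across genes), as did 6716 of all 9278 genes (r = 0.69). By construction the difference between these comparisons is the interaction above, which called none.

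Kcnj12, a strong inward rectifier, was low in every day-10 rat. It measured 7.33, 7.81, 7.13 and 7.74 in PF and 7.51, 7.39, 7.10 and 7.61 in ZD, against 8.29, 8.28, 7.90 and 8.35 in ZRPF and 8.24, 8.21, 8.23 and 7.86 in ZR. No day-16 value reached down into the day-10 range, although ZRPF rat 5 and ZR rat 15 came near it. The differences were 0.71 ± 0.16 (1.63-fold, adjusted p = 0.00596) in the control-diet groups and 0.73 ± 0.16 (1.66-fold, adjusted p = 0.00446) in the other pair. The other inward rectifiers differed by -0.08 to 0.13 between ZRPF and PF, none called. Kcnj11 measured 8.95, 8.90, 8.53 and 8.59 in PF, 8.66, 8.70, 8.55 and 8.67 in ZD, 8.95, 8.79, 8.82 and 8.79 in ZRPF and 8.88, 8.71, 8.68 and 8.80 in ZR, where the PF rats were the most spread. Kcnj16 measured 10.82, 10.67, 10.80 and 10.73 in PF, 10.79, 10.84, 10.85 and 10.41 in ZD, 10.78, 10.76, 10.98 and 10.64 in ZRPF and 10.86, 10.68, 10.99 and 11.00 in ZR. The groups of both genes overlapped in every comparison.

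Kcnc4 had the smallest p of the 35 in ZR minus ZD. Against the PF and ZD values given above, it measured 9.18, 9.11, 8.93 and 9.36 in ZRPF and 9.18, 9.24, 9.56 and 9.30 in ZR. All 8 day-16 values were higher than all 8 day-10 values. The difference was 0.38 ± 0.10 in ZRPF minus PF (adjusted p = 0.0183) and 0.75 ± 0.10 in ZR minus ZD (1.68-fold, adjusted p = 0.00012). The first of these lost its call with median centring or without ZRPF rat 6 (adjusted p up to 0.0669). Kcnc1, the other bright Kcnc gene, measured 11.78, 11.81, 11.60 and 11.89 in PF, 11.69, 11.59, 11.73 and 11.82 in ZD, 11.82, 11.87, 11.69 and 11.51 in ZRPF and 11.84, 11.82, 11.66 and 11.61 in ZR. All of its groups overlapped, and it differed by -0.05 and 0.02 in the same comparisons.

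Kcnh2, the ERG channel gene, measured 7.67, 7.72, 7.77 and 7.67 in PF and 8.26, 8.34, 8.38 and 8.54 in ZRPF, with a wide gap between the groups (0.67 ± 0.14, 1.59-fold, adjusted p = 0.00247). It was more spread in the other groups, at 7.65, 7.59, 8.02 and 8.01 in ZD and 7.88, 8.24, 8.40 and 8.50 in ZR. ZR rat 7 lay among the ZD values. The difference there was 0.44 ± 0.14 (adjusted p = 0.0329), and it was past the threshold in 16 of 24 alternative settings. Leaving out ZD rat 2 or 3 or ZR rat 10, 13 or 15 gave adjusted p-values of 0.0612 to 0.104, and the call was also lost with median centring, no filter on signal or the ZD and ZR arrays fitted alone.

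Other genes were called in one of the comparisons alone. Kcnk3 was higher in ZRPF, at 7.55, 7.70, 7.29 and 7.51, than in PF (0.51 ± 0.15, adjusted p = 0.0262) and measured 7.89, 8.03, 7.58 and 7.45 in ZR, which overlapped with ZD (0.35 ± 0.15, adjusted p = 0.113). Kcna5, a delayed rectifier best known in heart and vessels, measured 7.09, 7.18, 7.20 and 7.14 in PF and 7.34, 7.61, 7.71 and 7.65 in ZRPF (0.42 ± 0.13, adjusted p = 0.029). This call held in 15 of 26 alternative settings and was lost without PF rat 1, 2 or 6 or ZRPF rat 4, 5 or 6 (adjusted p of 0.0569 to 0.0812). It was also lost with median centring, quantile normalization or no filter on signal. The Kcnk3 call was lost without PF rat 2 or ZRPF rat 2, 4 or 6 (adjusted p of 0.0520 to 0.0981), and with quantile normalization or no filter on signal, and held in 18 of 26 settings. Kcna5, Kcna1 and Kcna6 lie next to each other in the rat genome and did not share one pattern: the ZRPF minus PF values were 0.42, 0.19 and -0.02, and the ZR minus ZD values 0.13, 0.32 and -0.09.

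The beta subunits again went in opposite directions. Kcnab1 measured 11.35, 11.28, 11.21 and 11.18 in PF, all above the ZRPF values given above (-0.34 ± 0.08, adjusted p = 0.00546). Kcnab2 measured 10.72, 10.81, 10.78 and 10.88 in PF, all below its ZRPF values (0.30 ± 0.07, adjusted p = 0.00553). With median centring the Kcnab2 difference was 0.22 and was not called (adjusted p = 0.0546). In the ZD rats they were 11.03, 11.30, 11.25 and 11.06 for Kcnab1 and 10.85, 10.69, 10.79 and 11.04 for Kcnab2, and the ZR minus ZD differences were -0.11 ± 0.08 and 0.14 ± 0.07, not called. Further probe sets of Kcnab1 (1369847_at) and Kcnab2 (1397663_at) gave 0.37 ± 0.14 and 0.00 ± 0.12 in ZR minus ZD. In ZRPF minus PF they gave -0.36 ± 0.14 and 0.16 ± 0.12, none called.

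Kcns3 and Kcnma1 were the other genes that fell. Kcns3, which makes no channel alone but modifies Kcnb channels, measured 8.96, 8.72, 8.65 and 8.79 in PF and 7.88, 8.32, 8.33 and 8.38 in ZRPF (-0.55 ± 0.16, adjusted p = 0.0242). In ZD it measured 8.59, 8.79, 8.84 and 9.15 and in ZR 7.99, 8.38, 8.84 and 8.37 (-0.45 ± 0.16, adjusted p = 0.0607). Leaving out PF rat 1 or ZRPF rat 2 ended the first call (adjusted p = 0.0757 and 0.0829). Kcnma1, the BK pore, measured 9.67, 9.72, 9.66 and 9.73 in PF and 9.53, 9.50, 9.32 and 9.38 in ZRPF (-0.26 ± 0.08, adjusted p = 0.0302), a call past the threshold in 20 of 27 alternative settings and lost without PF rat 1, 2 or 6 or ZRPF rat 5 or 6 (adjusted p of 0.0556 to 0.0890). It measured 9.52, 9.61, 9.82 and 9.63 in ZD and 9.53, 9.47, 9.67 and 9.51 in ZR, overlapping groups that differed by -0.10 ± 0.08.

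On their brightest probe sets Kcna1, Kcnd2 and Kcnip3 were called between ZR and ZD alone. A further probe set of Kcnd2, described below, was called in both comparisons, and that of Kcnd3 between ZR and ZD. Kcna1, the Kcna subunit of axon terminals and the flanks of nodes, measured 10.81, 10.75, 10.91 and 10.93 in ZD and 11.06, 11.19, 11.29 and 11.13 in ZR, without overlap (0.32 ± 0.08, adjusted p = 0.00713). Kcnd2 measured 11.65, 11.35, 11.74 and 11.40 in ZD, against the higher ZR values above (0.36 ± 0.09, adjusted p = 0.0108), and ZR rat 15 lay just under the highest ZD rat. Kcnip3, a KChIP that can also act as a repressor of transcription, measured 9.22, 9.57, 9.19 and 9.50 in ZD and 9.60, 9.65, 9.58 and 9.72 in ZR (0.27 ± 0.08, adjusted p = 0.0379). The last call held in 15 of 25 alternative settings and was lost without ZD rat 2 or 8 or ZR rat 7, 10 or 15 (adjusted p of 0.0612 to 0.115). It was also lost with median centring, quantile normalization, no filter on signal or the ZD and ZR arrays fitted alone. The ZRPF minus PF differences were 0.19, 0.07 and 0.21, with adjusted p-values of 0.0925, 0.636 and 0.104.

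The genes not described so far were called in none of the 5 contrasts on their brightest probe sets. Kcng2, a modifier subunit near the signal minimum, differed by 0.31 ± 0.14 in both comparisons between experiments (adjusted p = 0.138 and 0.136), and its ZR values lay above all ZD values. Kcnt1, the sodium-activated channel gene, had -0.18 ± 0.14 and -0.33 ± 0.14, and Kcnq5, a subunit of the M current, -0.22 ± 0.12 and -0.03 ± 0.12. Kcne4, a small accessory subunit, had -0.09 ± 0.17 and -0.06 ± 0.17, and Kcnab3, the remaining beta subunit, 0.08 ± 0.12 and -0.04 ± 0.12. The leak channel genes Kcnk1 and Kcnk2 ran from -0.17 to -0.03, and Kcnmb4, a neuronal BK beta subunit, differed by 0.10 and 0.03.

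**Figure D3:**
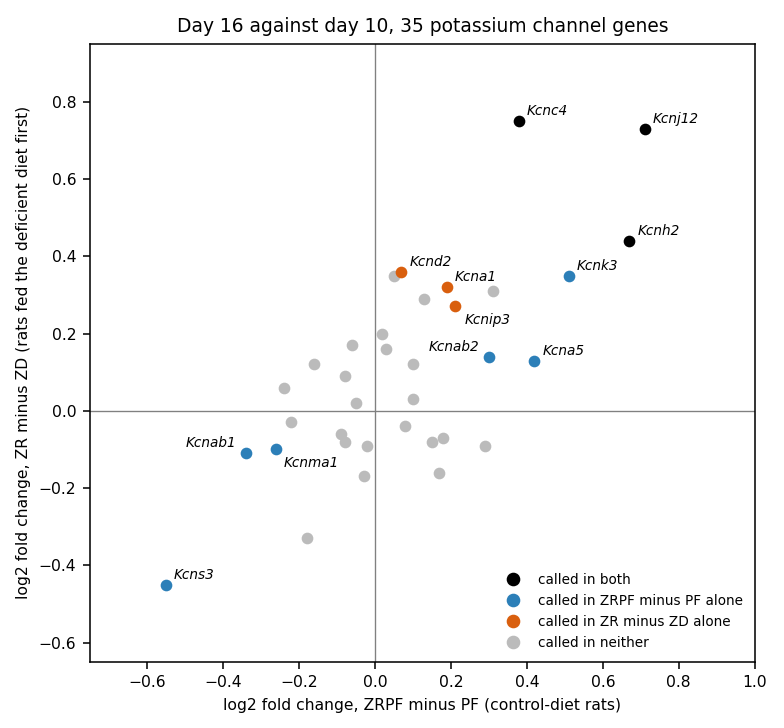
Each point is 1 of 35 genes, with its log2 fold change between the control-diet groups (ZRPF minus PF) on the horizontal axis and between the groups that began on the deficient diet (ZR minus ZD) on the vertical axis. Black points (Kcnc4, Kcnj12, Kcnh2) were called in both, blue and orange points in one, and grey points in neither; 25 of 35 have the same sign on both axes.

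**Figure D4:**
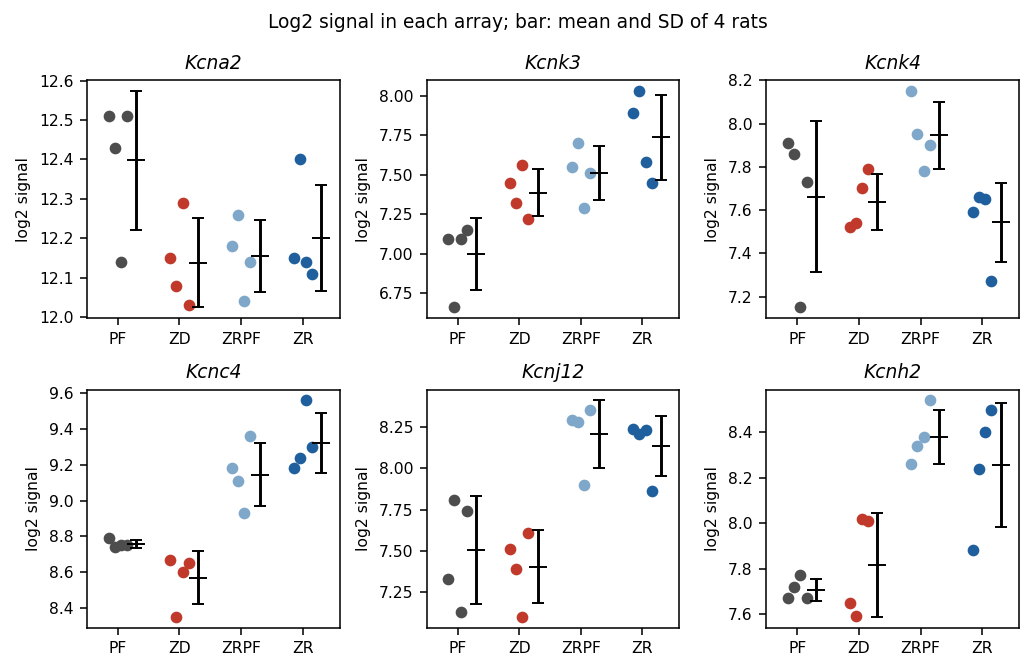
Log2 signal of 6 genes in each array, coloured by group, with the mean and SD of 4 rats beside the points; the vertical scales differ between panels. In the upper row PF and ZD (Kcna2, Kcnk3) or ZRPF and ZR (Kcnk4) differ by small amounts, and in the lower row Kcnc4 and Kcnj12 separate all day-16 from all day-10 arrays, while Kcnh2 has ZR rat 7 at 7.88 among the ZD values.

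Other measures differed between the experiments as well. Of 10 hypothalamic markers, 4 were called higher in ZRPF than in PF and 4 in ZR than in ZD, beside 9.25% and 8.16% of all genes. In ZRPF minus PF 8 were higher and 2 lower. The summed signal of the 10, in which the brightest genes weigh most, was 29196 to 34063 in PF and 25820 to 35321 in ZD. It was 41230 to 45548 in ZRPF and 37976 to 43989 in ZR. Among 13 thalamic markers, 5 were higher and 8 lower in ZRPF minus PF, 1 of them called lower. In ZR minus ZD 9 were higher and 4 lower, none called. The labelling control for beta-actin, a log2 ratio of the signal at the 3′ end to that at the 5′ end, was 1.49 to 1.73 in PF and 1.37 to 1.67 in ZD against 2.05 to 2.48 in ZRPF and 2.05 to 2.20 in ZR, without overlap. The same ratio for GAPDH was 0.05 to 0.15 on day 10 and 0.15 to 0.30 on day 16. For hexokinase it overlapped between the experiments, at 0.49 to 1.42 on day 10 and 0.82 to 1.44 on day 16. All 8 mural and meningeal markers were lower in ZR than in ZD, 4 of them called, beside 8.42% of all genes called lower. Their summed signal was 4230 to 6629 in ZD and 3500 to 4012 in ZR. The part of tissue composition or of labelling in the channel differences was not tested.

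For 10 of the 35 genes a further probe set was bright enough to test, 13 in all, and for some the experiments differed far more on the further probe set than on the brightest. These probe sets were noticed after their values were seen. Kcnc2 was the widest case. Its brightest probe set (1370439_a_at) measured 13.12, 13.11, 12.99 and 12.96 in ZRPF and 13.18, 13.15, 12.93 and 12.80 in ZR, and differed from day 10 by 0.02 ± 0.09 and 0.20 ± 0.09. The probe set 1370559_at measured 9.46, 9.19, 8.91 and 9.11 in PF and 8.82, 9.23, 8.93 and 8.84 in ZD, against 11.48, 11.51, 11.70 and 11.32 in ZRPF and 11.46, 11.08, 11.16 and 9.85 in ZR. Every day-16 value was higher, ZR rat 15 least. The differences were 2.34 ± 0.23 (adjusted p = 2.81e-06) and 1.94 ± 0.23 (adjusted p = 2.37e-05), the largest of any probe set of these genes that was tested. Another probe set, 1388225_at, was also higher in both comparisons (1.45 ± 0.21 and 1.11 ± 0.21, adjusted p = 0.000172 and 0.00166), and the remaining pair, 1370557_a_at and 1370558_a_at, ran from -0.04 to 0.32 with neither called.

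Kcnd2 and Kcnip4, whose proteins assemble with each other, had the same feature. For Kcnd2 the probe set 1387476_at measured 10.29, 10.27, 10.21 and 9.97 in PF, 10.26, 10.33, 9.79 and 9.80 in ZD, 11.22, 11.26, 11.07 and 11.01 in ZRPF and 11.20, 11.15, 11.13 and 10.91 in ZR. Its differences were 0.96 ± 0.12 (adjusted p = 2.89e-05) and 1.05 ± 0.12 (adjusted p = 1.11e-05), where the brightest probe set gave 0.07 and 0.36. For Kcnip4 the probe set 1370595_a_at measured 9.06, 9.03, 8.83 and 8.80 in PF, 8.76, 8.92, 9.05 and 8.96 in ZD, 9.56, 9.34, 9.31 and 9.71 in ZRPF and 9.59, 9.51, 9.60 and 9.30 in ZR. It rose by 0.55 ± 0.10 (adjusted p = 0.00159) and 0.58 ± 0.10 (adjusted p = 0.00114), where the brightest gave -0.16 and 0.12. Day-10 and day-16 arrays did not overlap on either further probe set.

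**Figure D5:**
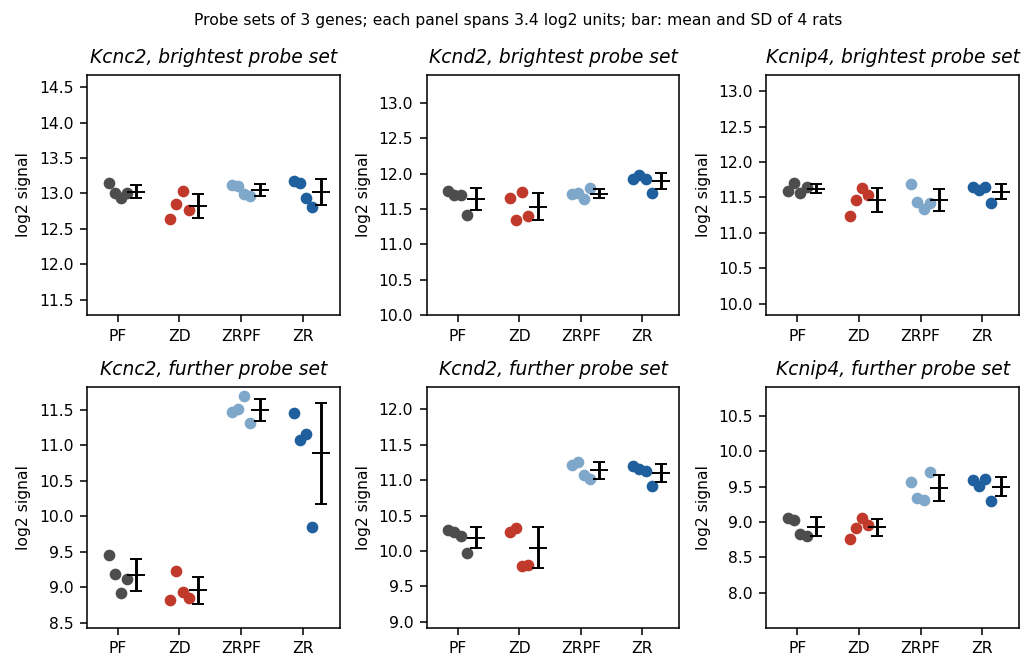
Log2 signal in each array for the brightest probe set (upper row) and a further probe set (lower row) of Kcnc2 (1370559_at), Kcnd2 (1387476_at) and Kcnip4 (1370595_a_at), with the mean and SD of 4 rats; every panel spans the same number of log2 units. On the further probe sets all ZRPF and ZR points lie above all PF and ZD points, while on the brightest probe sets the groups of the 2 experiments overlap.

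The disagreement was measured within arrays as the log2 ratio of the further to the brightest probe set. For Kcnc2 (1370559_at) the ratio was -3.86 ± 0.14 in PF and -1.54 ± 0.17 in ZRPF (SD, n = 4 each), and -3.87 ± 0.20 in ZD and -2.13 ± 0.57 in ZR. For Kcnd2 it was -1.46 ± 0.02 in PF, -0.58 ± 0.14 in ZRPF, -1.49 ± 0.39 in ZD and -0.79 ± 0.05 in ZR. For Kcnip4 it was -2.69 ± 0.13 in PF, -1.99 ± 0.19 in ZRPF, -2.54 ± 0.04 in ZD and -2.08 ± 0.03 in ZR. Ratios did not overlap between the experiments, in the same direction in both comparisons, for 4 of 13 further probe sets (these 3 and 1388225_at of Kcnc2), and over single comparisons for 6 of 13 in each. The two-sided exact permutation p was 0.0286 for each of these, the smallest that 4 against 4 arrays can give, and 0.0619 after adjustment over the 26 ratios tested, so 0 of 26 passed the threshold by this test. Such ratios were not computed for other genes. The counts therefore have no share over all genes beside them, and whether they are particular to potassium channel genes was not tested. The deposited table does not say which part of a transcript each probe set reads, and of the 3′ to 5′ control ratios given above, that of beta-actin differed between the same arrays without overlap.

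Further probe sets also bear on the diet comparisons. On 1369847_at of Kcnab1 the PF values were 7.86, 8.02, 8.16 and 8.05 and the ZD values 7.07, 7.76, 7.39 and 7.68, without overlap (-0.55 ± 0.14, adjusted p = 0.265). The brightest Kcnab1 probe set gave -0.10 ± 0.08. On 1369144_a_at of Kcnd3 the PF values were 9.86, 10.14, 10.05 and 9.90 and the ZD values 9.74, 9.46, 9.01 and 9.62, again all lower (-0.53 ± 0.17, adjusted p = 0.448), where the brightest gave -0.03 ± 0.08. Neither was called. Across the 13 further probe sets the sign matched that of the brightest in 10 for ZD minus PF, 10 for ZR minus ZRPF, 8 for the interaction and 9 for each comparison between experiments. Kcnt1 differed in sign in 4 of the 5 contrasts, with 0.32 ± 0.11 (adjusted p = 0.0497) on 1369222_at and -0.18 ± 0.14 on its brightest probe set for ZRPF minus PF, and Kcnj16 in 3, with -0.28 ± 0.11 on 1370076_at and 0.03 ± 0.10.

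Genes that work with these channels were read from lists of partner subunits, clustering proteins, pacemaker channels, G protein signalling to Kcnj channels, potassium transport and the glial Kcnj10 complex, 38 tested genes in all. None was called between ZD and PF or between ZR and ZRPF, where 3 and 2 of 38 had an unadjusted p under 0.05, beside 7.94% and 4.81% of all genes. In ZD the smallest p-value was that of Slc12a7, a potassium and chloride cotransporter (0.54 ± 0.14, adjusted p = 0.265), and Dlg4, the PSD-95 scaffold that clusters Kcna channels, differed by 0.31 ± 0.11 (adjusted p = 0.503). Dpp10, an accessory subunit of Kcnd channels, differed by -0.25 ± 0.11 (adjusted p = 0.604). Between ZRPF and PF 8 of 38 were called higher and 3 lower, beside 9.25% and 6.13% of all genes. Between ZR and ZD 7 were called higher and 2 lower, beside 8.16% and 8.42%.

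Within these lists the transporter Atp1b2, the glial beta subunit of the sodium-potassium pump, differed most, with group means of 11.71 in PF, 11.66 in ZD, 12.70 in ZRPF and 12.77 in ZR (0.98 ± 0.07, adjusted p = 7.72e-08, and 1.11 ± 0.07, adjusted p = 3.2e-08). The neuronal chloride exporter Slc12a5 rose by 0.33 ± 0.07 and 0.25 ± 0.07 (adjusted p = 0.00231 and 0.0145). Of 11 genes of G protein signalling to Kcnj channels, 4 were called higher in each comparison, beside the 9.25% and 8.16% of all genes. They were Gnao1, Gnai2, Gnb1 and Gabbr1 in ZRPF minus PF and Gnao1, Gabbr1, Gabbr2 and Rgs7bp in ZR minus ZD. The GABA-B receptor gene Gabbr1 rose in both (0.38 ± 0.07 and 0.30 ± 0.07, adjusted p = 0.000995 and 0.0058), while Gnb5 fell by 0.23 and 0.39 on the log2 scale (adjusted p = 0.0229 and 0.000537). Kcnj6, a channel subunit they act on, differed by -0.08 and 0.09 and was not called. Hcn2, a pacemaker channel gene, rose by 0.41 ± 0.11 and 0.46 ± 0.11 (adjusted p = 0.0135 and 0.00668). Dpp10 fell in ZRPF minus PF alone (-0.37 ± 0.11, adjusted p = 0.0298, and 0.00 ± 0.11 in ZR minus ZD), and 0 of 10 clustering genes and 0 of 5 genes of the glial complex were called in either comparison, where 1 and 2 of the 10 had an unadjusted p under 0.05, beside 30.4% and 31.1% of all genes.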

How the data were processed

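Per the labels' protocols, total RNA from single diencephalons was amplified and labelled from the 3′ end and hybridised to Affymetrix rat arrays, 1 per rat. The authors deposited a table of signal intensities on a linear scale, made with MAS5 per the submitters' processing notes (version not given in the sources used here). They were used as log2 values without further normalization. After 57 controls were left out, 15521 of 31042 probe sets with a mean log2 signal at or above the median (7.351) were tested with limma 3.58.1 in R 4.3.3, with all 4 groups in one fit and an intensity trend. The number of arrays limits the precision. Gene names came from the platform annotation: 20826 probe sets had 1 gene, 436 several and 9780 none. Each gene was represented by its brightest probe set. The genes, lists and tests were chosen with earlier results of these data known. Every potassium channel gene could be named. Arrays were listed for those called between experiments, up to 6 with the smallest p in each zinc contrast, the 6 of highest mean signal and Kcnj11, Kcnj16, Kcnma1, Kcnd2 and Kcnip2. At most 2 partner genes per list and contrast were named by smallest p, apart from the G protein list, where all genes called between experiments were named. Partner and marker lists are described by counts. The fit was tested on simulated data. Alternatives covered normalization, filter, offset, variance model, array weights, arrays fitted, probe sets, each rat left out, and rat number as a block. P-values measure the spread between the rats the submitters picked.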

Additional observations from a re-analysis of the deposited data

Results flagged for a closer look

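In groups of 4 arrays, 12 of 140 groups (35 genes, 4 groups) held a log2 signal far from the other 3 by Dixon's criterion at 95%, which flags about 1 in 20 groups by chance. Kcna2 was 12.40 in ZR rat 10, where the others were 12.11 to 12.15. Kcnj6 was 9.68 in the same rat, where the others were 9.95 to 9.97. Kcnip1 was 9.91 in PF rat 2 (others 9.66 to 9.68), and Kcnk3 was 6.66 in that rat (others 7.09 to 7.15), which enters the ZD and ZRPF differences of Kcnk3. Kcnj11 was 8.95 and Kcns3 7.88 in ZRPF rat 2 (others 8.79 to 8.82 and 8.32 to 8.38). Kcnj12 was 7.90 in ZRPF rat 5 (others 8.28 to 8.35) and 7.86 in ZR rat 15 (others 8.21 to 8.24), both still above all day-10 values. Kcnd3 was 10.77 in ZD rat 2 (others 11.01 to 11.05), Kcnip2 8.82 in ZD rat 8 (others 9.21 to 9.24), Kcnj16 10.41 in ZD rat 9 (others 10.79 to 10.85) and Kcnj14 8.95 in PF rat 6 (others 8.27 to 8.35).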

How the results depend on the processing

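Under the alternatives run, the count of potassium channel genes called stayed at 0 for ZD minus PF, ZR minus ZRPF and the interaction, and no difference of the named genes recomputed under these settings, each on its brightest probe set, changed direction. Further probe sets of the same genes did differ in sign for some, such as Kcnt1, Kcnj16, Kcnip4 and Kcnab1. The main count of 9 for ZRPF minus PF (6 higher, 3 lower) became 4 (2 higher) among the 10348 brightest probe sets, where 23 of the 35 were tested, and 14 (11 higher) over all 48 tested probe sets of these genes. Median centring left 3 higher, with 4 lower. Leaving out 1 rat at a time gave 6 to 10 called, 4 to 6 higher and 1 to 4 lower, with 1 lower without PF rat 1. For ZR minus ZD the main 6, all higher, became 11 over all probe sets (11 higher), and 4 to 7 with 1 rat left out. A lower call appeared (1) with quantile normalization and without ZD rat 2, ZRPF rat 2, ZR rat 7 or ZR rat 13. With the rat number shared by PF and ZRPF as a replicate block (6 arrays), 3 were called, all higher, and 0 lower. The same 6 arrays without the block, a setting chosen after seeing the data, also gave 3 (3 higher, 0 lower). What lowered the count was not tested. Same-numbered rats of PF and ZRPF had correlations of 0.0789, 0.0198 and 0.0351, and differently numbered rats -0.0956 to 0.0783. So few rats cannot show whether the numbers pair them. Pairing of PF with ZD rats and of ZRPF with ZR rats was not tested. Leaving out ZD rats 8 and 9, the arrays of lowest weight, was also added after seeing the data and ended the ZR minus ZD call of Kcnip3. Signals near the minimum, as for Kcna5 and Kcnk3, limit what can be called. Depth is not defined for arrays.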
